A study of Mus musculus with 9 samples.

Results

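The matrix metalloproteinase genes (Mmp), the Adamts protease genes, the Adamts-like genes (Adamtsl) and the genes of the tissue inhibitors of metalloproteinases (Timp) were followed across mouse ovary samples by RNA-seq. Members were all protein-coding genes whose symbol joins one of these 4 family names to a number, except Mmp12 and Adamts1. This gave 48 of the 55536 genes measured, namely 21 Mmp, 18 Adamts, 5 Adamtsl and 4 Timp genes. Of the 51 genes whose symbol fits, Mmp12 and Adamts1 were left out by the rule and Mmp1a because it is annotated as a polymorphic pseudogene. The 9 libraries formed 3 groups of 3. Wild-type ovaries carried FOXL2 WT/WT, and the other 6 samples carried FOXL2 WT/C134W, in which 1 copy of this forkhead factor of granulosa cells has the C134W change. Hyperplasia was the label of 3 of these mutants and granulosa cell tumour that of the other 3. The question is how gene expression in such tumours departs from normal ovary. No age and no cell type or promoter for the allele is given in the labels. Nothing in the labels ties the libraries to separate animals, and the p-values therefore speak only to the variation among these samples, which may be technical.

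Matrix metalloproteinases are zinc-dependent enzymes that are made as inactive precursors and cleave collagens and other matrix proteins, some from the cell surface. Adamts enzymes are secreted proteases with thrombospondin repeats that bind them to the matrix, and the Adamts-like proteins share those repeats but have no protease domain. Timp proteins occupy the active site of these enzymes. In the ovary the system is known for the matrix remodelling of follicle growth, ovulation and the formation and loss of the corpus luteum.

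Libraries held 11661820 to 20890487 counts on genes, of which mitochondrial genes took 2.54% to 4.18%. Levels are in CPM (counts scaled to library size by the trimmed mean of M-values), which compares libraries within a gene, while TPM (the deposited transcript level, scaled for length) is used to compare genes. Granulosa cell markers were present in every group, with the summed level of 6 markers at 1070 to 2635 CPM in wild type, 779 to 2484 CPM in hyperplasia and 3460 to 4071 CPM in tumours. Most of that sum was Inha, at 757 to 2214 CPM in wild type, 499 to 1633 CPM in hyperplasia and 2402 to 3021 CPM in tumours. Fshr and Cyp19a1 overlapped between the groups in each comparison. Several libraries stood apart. Wild-type library 1 was the lowest of its group for 26 of the 38 tested members (68.4%), against 43.8% of all tested genes, and its deviation from the other 8 libraries fell with transcript length across genes (Spearman's rho −0.54, against −0.26 to 0.36 in the others). Tumour library 2 correlated less with the other tumours (r = 0.882 and 0.891 across genes) than they did with each other (0.965). Its surface epithelium markers summed to 1.37 CPM, against 1698 and 564.5 CPM in tumours 1 and 3, and Fshr was at 0 counts. Hyperplasia library 3, which shares a title stem with tumour library 3, correlated more with tumours 1 and 3 (0.954 and 0.971) than with hyperplasia libraries 1 and 2 (0.947 and 0.946).

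Between tumours and wild-type ovaries members were fitted in both directions, in shares close to those of all genes as given below. Adamts5 fell about 15.5-fold. In CPM, Timp1, Mmp3, Mmp19, Adamts15, Adamts14, Adamts6, Adamtsl1 and Adamtsl5 had lower levels in all tumours, and Adamts2, Adamts10 and Adamtsl2 had higher levels in all tumours. In TPM, tumours and wild type overlapped for Adamts2, Adamtsl2, Adamts6, Adamts15 and Mmp19. Whether libraries overlap is given in CPM here and below, except where TPM is named. Only Adamts5 passed the test across all genes (the quasi-likelihood test of edgeR, written edgeR or edgeR QL below, adjusted by Benjamini and Hochberg, BH, with a threshold of 0.05), 1 of 38 tested members against 1.6% of the 16213 genes tested (0.352% higher, 1.25% lower). At an unadjusted p under 0.05 there were 13 members (3 higher, 10 lower), 34.2% of those tested, against 20.1% of all genes (8.41% higher, 11.7% lower). In CPM, tumour and wild-type libraries did not overlap for 14 members (4 higher, 10 lower), or 36.8%, against 24.1% of all genes (10.6% higher, 13.4% lower). The median log2 fold change was 0.00 over the tested members and 0.01 over all genes, with 19 members fitted higher and 19 lower (49.1% of all genes were fitted lower). A member passes the low-count filter through any group in which it is high, so these counts describe the members that passed. The DESeq2 Wald test called 12 members on the same counts, 3 higher and 9 lower. That test called 1747 of the 16213 genes (604 higher, 1143 lower).

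**Figure D1:**
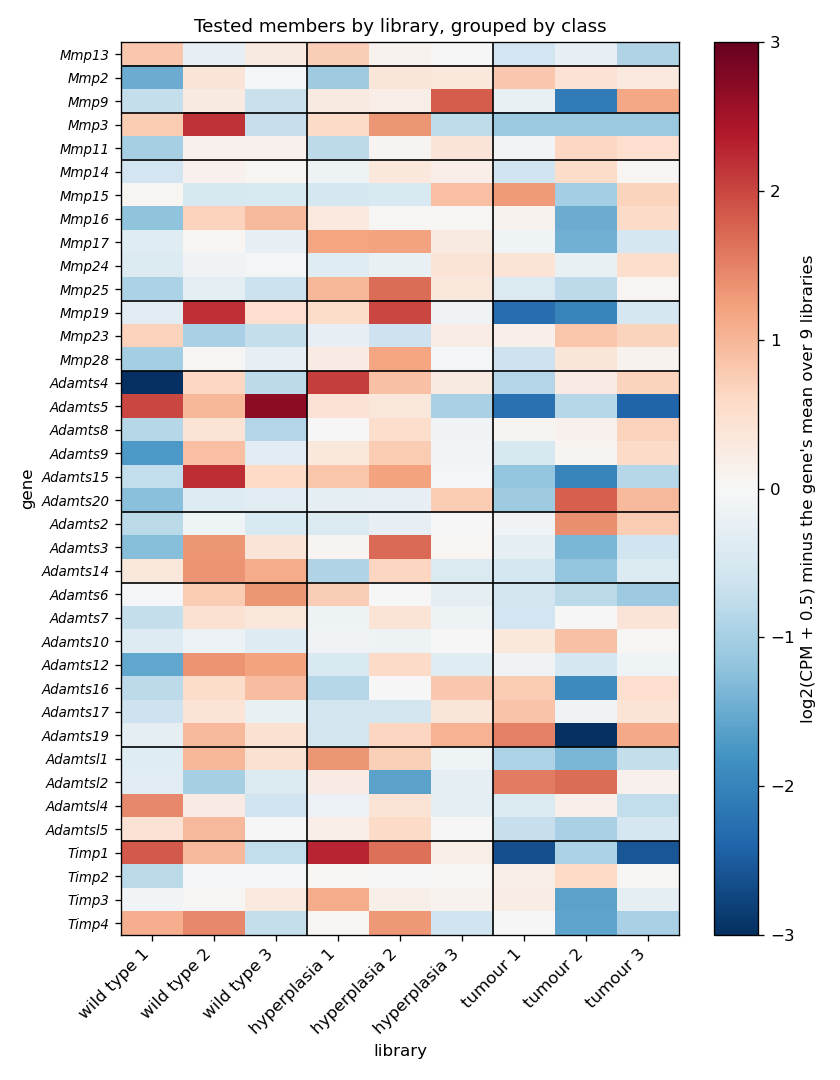
Heat map of the 38 tested members (rows, grouped by class with black lines) in the 9 libraries (columns), as log2(CPM + 0.5) minus the mean of the gene over the 9 libraries, with values past 3 in size drawn at the end of the scale. By group mean Adamts5 and Timp1 are lowest in the tumour columns and Adamts2 and Adamtsl2 highest there, and wild-type library 1 and tumour library 2 differ from the rest of their groups in many rows.

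Adamts5 encodes aggrecanase-2, an enzyme that cleaves the large hyaluronan-binding proteoglycans aggrecan and versican (ENSMUSG00000022894, GRCm38 chromosome 16, 85856173 to 85901828, minus strand). Its level was 40.4, 19.7 and 65.2 CPM in wild-type libraries 1 to 3, 13.3, 12.3 and 4.65 CPM in hyperplasia, and 1.66, 5.07 and 1.43 CPM in tumours. Every wild-type library lay above every hyperplasia and every tumour library, and tumour 2 alone lay above the lowest hyperplasia library. Group means were 41.8 ± 22.8 CPM (SD, n = 3), 10.1 ± 4.73 CPM and 2.72 ± 2.04 CPM. In tumours against wild type it fell by 3.95 in log2 units (SE 0.69, edgeR, BH adjusted p = 0.0403; range over alternatives 1.58e-07 to 0.127). Adamts5 in hyperplasia differed from wild type by −2.05 (SE 0.62, edgeR, BH adjusted p = 0.999), and tumours differed from hyperplasia by −1.90 (SE 0.64, edgeR, BH adjusted p = 0.248), neither past the threshold. The first 2 of these comparisons share the wild-type libraries. Leaving out 1 library kept the log2 difference between −4.75 and −3.48, but the call was lost without wild-type library 1, 2 or 3 (edgeR, BH adjusted p = 0.0833, 0.0745 and 0.0932), hyperplasia library 2 (0.0609) or tumour library 1 or 3 (0.127 and 0.103). The call of Adamts5 was also lost with a term in the model for the title stem that hyperplasia and tumour libraries 3 share (−3.61, edgeR, BH adjusted p = 0.0528) and without both wild-type library 1 and tumour library 2 (−4.80, 0.0638).

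Marker levels of several cell types moved in the same comparison as Adamts5, in the bulk tissue where fewer cells of a type and less RNA per cell cannot be told apart. The summed macrophage markers stood at 135 to 224 CPM in wild type and 71.6 to 93.8 CPM in tumours, with 6 of 6 lower. Smooth muscle markers, 6 of 6 lower, stood at 1074 to 2304 CPM against 328 to 952 CPM. The 5 luteal cell markers were all lower, at 1674 to 4336 CPM against 328 to 488 CPM. Oocyte markers were lower for 6 of 6, at 95.5 to 131 CPM against 1.43 to 4.97 CPM, with Zp2 and Oosp1 at 0 counts in all tumours. Adipocyte markers were lower for 5 of 5, at 60.7 to 124 CPM against 13.1 to 18.3 CPM, with Adipoq, Retn and Cfd at 0. Fibroblast and stroma markers overlapped, with 3 of 6 lower and sums of 1602 to 5030 CPM in wild type and 1404 to 3970 CPM in tumours. Endothelium markers overlapped as well, with 5 of 6 lower and sums of 388 to 407 CPM against 233 to 495 CPM. Theca cell markers, with 3 of 4 lower, summed to 5732 to 9894 CPM against 736 to 1555 CPM. Most of that sum was Cyp11a1, at 5248 to 9573 CPM against 459 to 1042 CPM. Cyp17a1, Insl3 and Nr5a1 overlapped between the groups, with Cyp17a1 fitted higher in tumours (0.35). The part of these cell types in the differences of Adamts5 and of the members below was not tested.

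**Figure D2:**
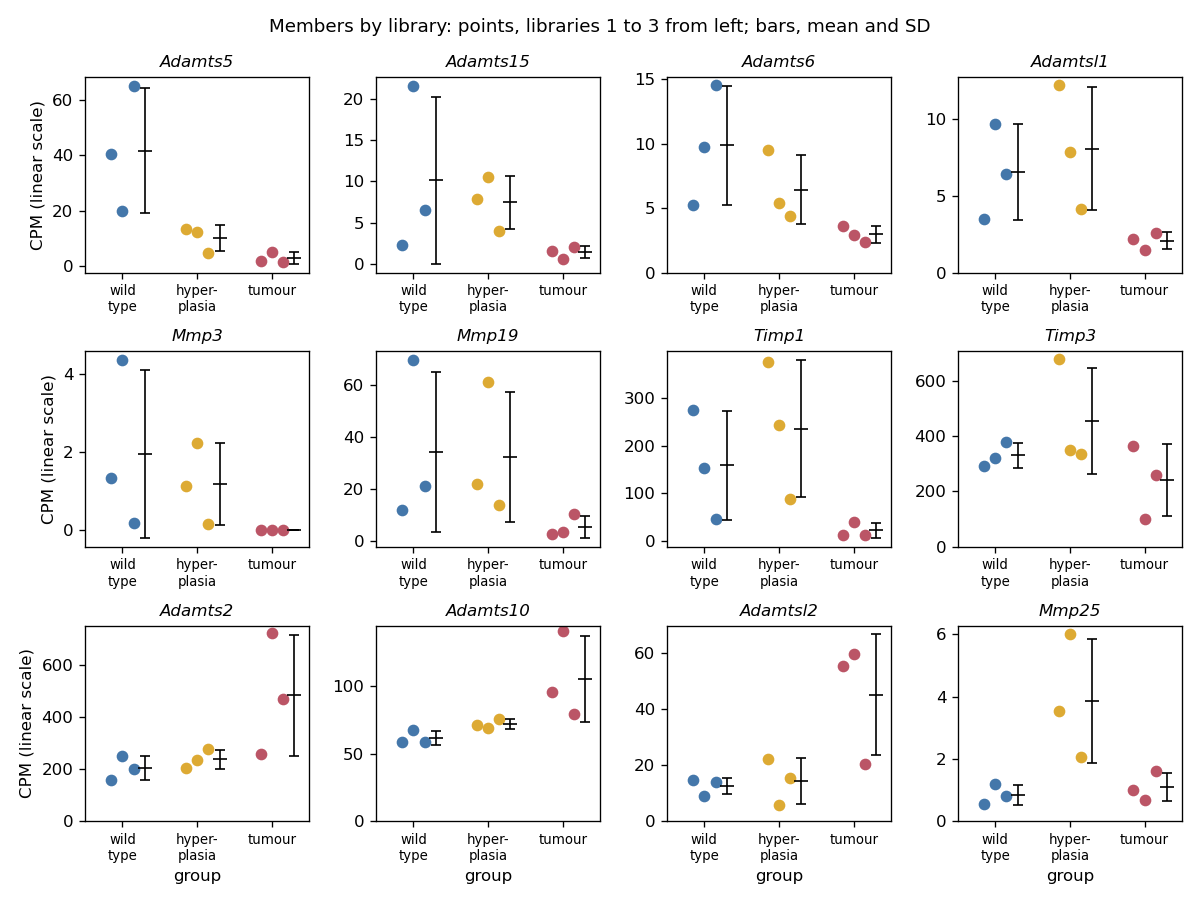
Levels in CPM (linear scale) of 12 members in each library of the 3 groups, with points for libraries 1 to 3 from left to right and a bar for the mean and SD. The means of Adamts5 are 41.8, 10.1 and 2.72 CPM from left to right, Mmp3 is at 0 in the tumours, Mmp25 has its 3 highest points in hyperplasia, and the means of Adamts2, Adamts10 and Adamtsl2 are highest in tumours.

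The other Adamts enzymes that cleave hyaluronan-binding proteoglycans did not share one pattern, and none of these 5 passed the test. Adamts15 stood at 2.34, 21.5 and 6.61 CPM in wild type, 7.87, 10.5 and 4.07 CPM in hyperplasia and 1.59, 0.683 and 2.10 CPM in tumours. All 3 tumours lay below the other 6 libraries, at a log2 difference of −2.78 from wild type (SE 0.81, edgeR, BH adjusted p = 0.107), or −1.61 to −3.25 with 1 library left out. Adamts4, aggrecanase-1, stood at 2.14, 35.2 and 12.9 CPM in wild type, 97.3, 42.2 and 27.6 CPM in hyperplasia and 12.0, 27.1 and 36.2 CPM in tumours. Its groups overlapped and it differed by 1.73 between hyperplasia and wild type (SE 0.86, edgeR, BH adjusted p = 0.999), from 1.06 without hyperplasia library 1 to 2.90 without wild-type library 2. Adamts9, which also trims versican, ranged from 21.4 to 136 CPM with both extremes in wild type. Adamts8 stayed between 0.23 and 1.68 CPM, and Adamts20, which was at 0 in wild-type library 1 and at most 0.46 CPM in that group, reached 3.61 CPM in tumour 2 and 1.85 CPM in tumour 3, with 0.0662 CPM in tumour 1.

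The procollagen N-propeptidases, which trim fibrillar collagen precursors before fibrils form, pointed in different directions. Adamts2 stood at 158, 251 and 200 CPM in wild type, 205, 233 and 276 CPM in hyperplasia and 258, 725 and 471 CPM in tumours. All tumours lay above all wild-type ovaries, tumour 1 only just, and tumour 1 also lay below hyperplasia library 3. The log2 difference was 1.25 (SE 0.37, edgeR, BH adjusted p = 0.109). Adamts14, a relative with the same activity on collagen, had 2.34, 5.18 and 4.37 CPM in wild type, 0.696, 2.97 and 1.15 CPM in hyperplasia and 1.06, 0.488 and 1.18 CPM in tumours. Its tumour libraries were all below wild type, at −2.11 (SE 0.64, edgeR, BH adjusted p = 0.118). Adamts3 ranged from 0.448 to 5.24 CPM in wild type, 1.87 to 6.88 CPM in hyperplasia and 0.39 to 1.39 CPM in tumours, with tumours below every hyperplasia library but overlapping wild type.

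Among the remaining Adamts genes, Adamts10, which binds fibrillin microfibrils, had close values within wild type and within hyperplasia. It stood at 58.8, 67.4 and 58.8 CPM in wild type, 71.3, 68.9 and 75.7 CPM in hyperplasia and 95.9, 141 and 79.3 CPM in tumours. In CPM the 3 groups did not overlap in any of the 3 comparisons, with tumours highest and wild type lowest, although tumours exceeded wild type by a log2 difference of only 0.77 (SE 0.23, edgeR, BH adjusted p = 0.113). In TPM the hyperplasia libraries overlapped both other groups, while tumours stayed above wild type. The difference between tumours and wild type was 0.37 with limma on log2(TPM + 1) (BH adjusted p = 0.485). Adamts6, its closest relative, stood at 5.27, 9.78 and 14.5 CPM in wild type, 9.48, 5.43 and 4.41 CPM in hyperplasia and 3.64, 2.93 and 2.35 CPM in tumours. Here the order was the other way, with every tumour below the other 6 libraries (−1.72 against wild type, SE 0.47, edgeR, BH adjusted p = 0.0914). Adamts12 varied within the wild-type group, at 8.50 CPM in wild-type library 1 against 67.0 and 61.1 CPM in wild-type libraries 2 and 3. Adamts19 and Adamts16 set tumour 2 apart: Adamts19 had 0.195 CPM there against 59.5 and 46.0 CPM in tumours 1 and 3, and Adamts16 was at 0 against 2.71 and 2.18 CPM. The surface epithelium markers and Fshr of that library were near or at 0 as given above, and whether these levels belong together was not tested. Adamts7 (7.36 to 17.2 CPM) and Adamts17 (0.945 to 3.51 CPM) had overlapping groups in each comparison, and Adamts13, the von Willebrand factor protease, was seen in 1 library at 0.0535 CPM.

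The Adamts-like genes held both directions within 5 members. Adamtsl2, which binds fibrillin and latent TGF-β binding protein, stood at 14.5, 9.07 and 13.8 CPM in wild type, 22.1, 5.72 and 15.2 CPM in hyperplasia and 55.4, 59.9 and 20.3 CPM in tumours. All tumours exceeded all wild-type ovaries, and tumour 3 lay within the range of hyperplasia (1.86 against wild type, SE 0.54, edgeR, BH adjusted p = 0.103). Adamtsl1 stood at 3.48, 9.72 and 6.44 CPM in wild type, 12.2, 7.90 and 4.17 CPM in hyperplasia and 2.185, 1.463 and 2.604 CPM in tumours, so that the tumours were below the other 6 libraries (−1.64 against wild type, SE 0.53, edgeR, BH adjusted p = 0.13). Adamtsl1 shares 125024 bases on the same strand with the annotated gene Sh3gl2. Sh3gl2 stood at 5.82, 9.42 and 9.37 CPM in wild type, 16.1, 13.1 and 5.37 CPM in hyperplasia and 2.98, 0.390 and 2.27 CPM in tumours. Its tumours were thus also below the other 6 libraries, and whether the overlap has a part in either level was not tested. Adamtsl5 had low levels with the tumours again below the other 6 libraries, at 1.035 to 2.53 CPM in wild type, 1.05 to 1.81 CPM in hyperplasia and 0.293 to 0.588 CPM in tumours. Adamtsl4 overlapped in each comparison. Adamtsl3 did not pass the low-count filter, with 20 counts over wild type, 10 over hyperplasia and 1 over tumours.

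Timp1, Timp2 and Timp3 were among the 6 members with the highest mean TPM, Timp4 was near 0, and only Timp1 had all 3 tumours outside the range of the other 6 libraries. Timp1, a secreted inhibitor of most matrix metalloproteinases (ENSMUSG00000001131, chromosome X, 20870166 to 20874735, plus strand), stood at 276.5, 153 and 46.3 CPM in wild type. It stood at 376, 245 and 87.0 CPM in hyperplasia and at 11.9, 39.5 and 12.6 CPM in tumours. The tumours lay below the other 6 libraries, with tumour 2 closest to wild-type library 3. The difference was −2.90 from wild type (SE 0.79, edgeR, BH adjusted p = 0.0905) and −3.47 from hyperplasia (SE 0.81, edgeR, BH adjusted p = 0.125), and neither passed. Without wild-type library 1 the first was −2.23 and without tumour library 2 it was −3.69, and the second ran from −4.26 without tumour library 2 to −2.96 without hyperplasia library 1. Both Timp1 differences passed in the DESeq2 Wald test (BH adjusted p = 0.00197 and 1.84e-04), with no low-count filter (edgeR, BH adjusted p = 0.0324 and 0.0295) and with limma on log2(TPM + 1) (0.0407 and 0.0376). For the first of them the range over alternatives was 0.00197 to 0.213. Macrophage, luteal cell, smooth muscle, oocyte and adipocyte markers were all lower in tumours as given above. Within wild type the macrophage sums were 134.8, 223.6 and 221.4 CPM in libraries 1 to 3. The part of these cell types in the Timp1 differences was not tested. Timp1 lies inside Syn1 on the opposite strand, a gene at 1.13 to 10.1 CPM. No source used here names the strand setting of the counting, so values of members that overlap a gene on the other strand are uncertain in part.

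Timp2, which inhibits and also helps to activate Mmp2 through Mmp14, stood at 248, 419.5 and 418 CPM in wild type, 452, 437 and 450 CPM in hyperplasia and 492, 654.5 and 447 CPM in tumours. In CPM every mutant library lay above every wild-type library, with wild-type library 1 well below the rest. In TPM the mutant and wild-type libraries of Timp2 overlapped. Wild-type libraries 2 and 3 stood at 274 and 253 TPM, against 239 TPM in hyperplasia library 3 and 249 TPM in tumour library 3. The difference between tumours and wild type was 0.55 (SE 0.27, edgeR, BH adjusted p = 0.294). Timp3, the matrix-bound inhibitor that also acts on Adamts4 and Adamts5, stood at 292, 320 and 379 CPM in wild type, 676.5, 351 and 336 CPM in hyperplasia and 362, 102 and 258 CPM in tumours. Tumour 2 was the lowest of the 9 libraries and hyperplasia library 1 the highest, and the groups overlapped (−0.46, SE 0.45, edgeR, BH adjusted p = 0.62). Timp4 reached at most 3.53 CPM, was at 0 in tumour 2, and overlapped in each comparison (−2.31 between tumours and wild type, SE 1.17, edgeR, BH adjusted p = 0.31), from −3.97 without tumour library 1 to −1.77 without tumour library 2. Timp3 and Timp4 lie inside Syn3 and Syn2 on the opposite strand. Syn3 had 59.7 CPM in wild-type library 1 and 0.975 to 5.46 CPM in the others.

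On the length-scaled TPM level the order of the family changed between groups. In wild type Timp1 led at 333 ± 187 TPM (SD, n = 3), followed by Timp2 at 201 ± 108, Mmp14 at 170 ± 76.6, Mmp11 at 136 ± 58.6, Mmp2 at 117 ± 63.9 and Timp3 at 110 ± 36.0 TPM. Neighbours in that order differed by less than the larger of their SDs. In hyperplasia Timp1 was at 605 ± 379 TPM, with Timp2 next at 253 ± 12.8 TPM. In tumours Timp2 led at 283 ± 29.9 TPM, ahead of Mmp14 at 159 ± 48.4, Mmp2 at 158 ± 51.8 and Mmp11 at 157 ± 45.2 TPM, which could not be ordered. Timp1 stood at 38.4 ± 16.1 TPM there, below Adamts2 (97.2 ± 30.0 TPM) and Mmp23 (84.4 ± 23.0 TPM). The summed TPM of the 4 Timp genes was 646 ± 155 for wild type, 1024 ± 454 for hyperplasia and 399 ± 46.1 for tumours, with the 3 tumours (452, 372 and 373 TPM) below the other 6 libraries (512 to 1481 TPM). The summed TPM of the 21 Mmp genes overlapped between the groups, at 524 ± 207 for wild type, 624 ± 160 for hyperplasia and 600.2 ± 140 for tumours. For Timp genes the sum exceeded that of Mmp genes in wild-type libraries 1 and 2 and hyperplasia libraries 1 and 2, and lay below it in the other 5 libraries, including all tumours. These sums are descriptions with no test.

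**Figure D3:**
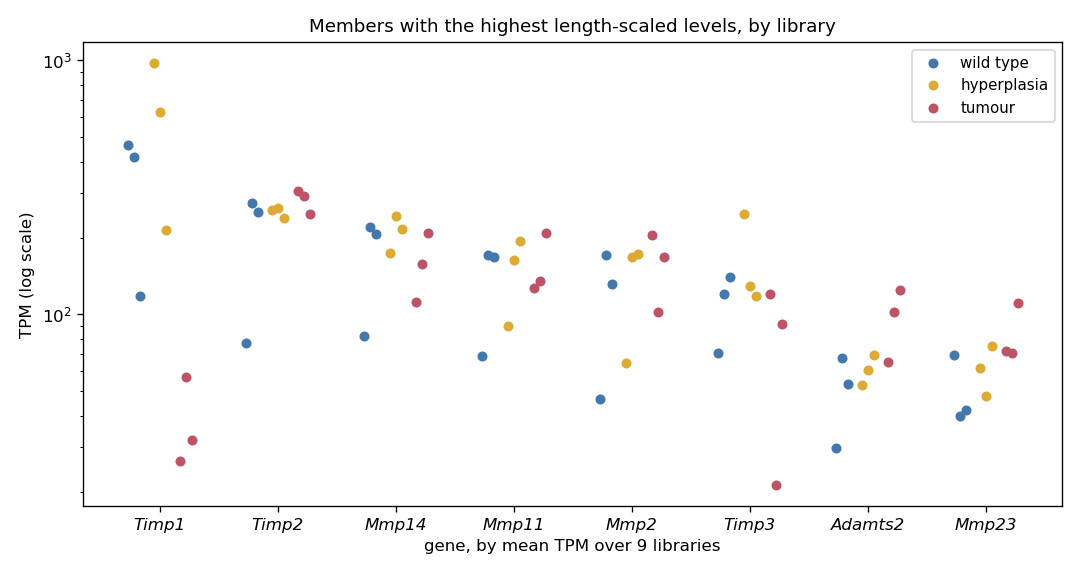
Level in TPM (log scale) of the 8 members with the highest mean over the 9 libraries, 1 point per library, coloured by group. Timp1 in the 3 tumours (26.4, 56.7 and 32.2 TPM) lies below every wild-type and hyperplasia library, and wild-type library 1 is the lowest of its group for Timp2, Mmp14, Mmp11 and Mmp2.

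The gelatinases, which digest denatured collagen and basement membrane collagen, did not separate the groups. Mmp2 stood at 77.2, 281 and 207 CPM in wild type, 104, 276.5 and 270 CPM in hyperplasia and 381, 292 and 266 CPM in tumours, with wild-type library 1 lowest (0.73 between tumours and wild type, SE 0.49, edgeR, BH adjusted p = 0.453). Mmp9 was much less abundant, at 4.824, 10.07 and 5.001 CPM, 10.1, 9.64 and 30.3 CPM, and 7.08, 1.56 and 19.3 CPM in the same order. Its highest values were in hyperplasia library 3 and tumour library 3, the pair that shares a title stem, and its difference between tumours and wild type turned from 0.49 to −0.51 with a model term for that stem.

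The membrane-type enzymes act at the cell surface, and Mmp14 is the main activator of the Mmp2 precursor. Mmp14 (chromosome 14, 54431612 to 54445364) stood at 180, 297 and 281 CPM in wild type, 242, 337 and 309 CPM in hyperplasia and 178, 392 and 282 CPM in tumours, with overlap in each comparison (0.17, SE 0.33, edgeR, BH adjusted p = 0.82). A sign could not be given to this difference, which was −0.02 without wild-type library 1 and −0.13 without tumour library 2. Mmp17 and Mmp25, the pair anchored by a glycolipid, were instead highest in hyperplasia. Mmp25 stood at 0.547, 1.18 and 0.805 CPM in wild type, 3.53, 6.01 and 2.06 CPM in hyperplasia and 0.993, 0.683 and 1.60 CPM in tumours. Mmp17 stood at 9.50, 12.8 and 10.3 CPM, 28.5, 29.1 and 14.95 CPM, and 11.2, 4.19 and 8.32 CPM in the same order. For both genes the 3 hyperplasia libraries lay above the other 6. Against wild type the log2 difference was 2.19 for Mmp25 (SE 0.56) and 1.16 for Mmp17 (SE 0.40), and neither passed (edgeR, BH adjusted p = 0.999 for both). Against tumours the hyperplasia libraries were apart by 1.81 for Mmp25 (SE 0.56, edgeR, BH adjusted p = 0.214) and 1.61 for Mmp17 (SE 0.41, edgeR, BH adjusted p = 0.145), and the DESeq2 Wald test called Mmp17 there (BH adjusted p = 0.00766). Mmp15, Mmp16 and Mmp24 overlapped in each comparison, and Mmp15 had 136 and 88.9 CPM in tumours 1 and 3 but 27.2 CPM in tumour 2.

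Of the other secreted enzymes, Mmp19, which is known from ovarian follicles and blood vessels, stood at 11.9, 69.6 and 21.2 CPM in wild type, 22.1, 61.0 and 13.9 CPM in hyperplasia and 2.65, 3.32 and 10.3 CPM in tumours. All tumours were below the other 6 libraries, tumour 3 narrowly so (−2.66 against wild type, SE 0.84, edgeR, BH adjusted p = 0.128), and the difference was −1.61 to −3.52 with 1 library left out. Mmp11, stromelysin-3, overlapped between groups at 90.3 to 198 CPM in wild type, 103.5 to 237 CPM in hyperplasia and 171 to 276 CPM in tumours (0.53, SE 0.39, edgeR, BH adjusted p = 0.49). It overlaps 3367 bases of Chchd10 on the opposite strand, at 40.8 to 179 CPM. Mmp28, epilysin, stood at 1.34 to 3.30 CPM in wild type, 3.16 to 7.97 CPM in hyperplasia and 1.92 to 4.29 CPM in tumours, and Mmp23 at 22.7 to 80.0 CPM over all libraries. Both overlapped in each comparison.

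Most of the secreted enzymes known for induction in inflamed or wounded tissue sit in 1 gene cluster, and nearly all had few or no counts. The 8 members on chromosome 9 between 7272514 and 7699585 (Mmp13, Mmp1b, Mmp3, Mmp10, Mmp8, Mmp27, Mmp20 and Mmp7) did not exceed 4.36 CPM in any library, and only Mmp3 and Mmp13 passed the filter. Mmp3, stromelysin-1, had 1.34, 4.36 and 0.172 CPM in wild type, 1.12, 2.25 and 0.144 CPM in hyperplasia and 0 counts in all 3 tumours. Its tumours were at least 24.3-fold lower than wild type against a floor of 3 counts over the tumour group (0.0805 CPM), although wild-type library 3 and hyperplasia library 3 were barely above 0 (edgeR, BH adjusted p = 0.114). Mmp13, collagenase-3, chosen for mention after its values were seen, had 1.14, 0.294 and 0.632 CPM in wild type, 1.07, 0.507 and 0.431 CPM in hyperplasia and 0.132, 0.293 and 0 CPM in tumours, the closest pair of wild type and tumour being level (−2.28, SE 0.92, edgeR, BH adjusted p = 0.209). Mmp8, the neutrophil collagenase, had 29 counts over wild type, 22 over hyperplasia and 2 over tumours, a ratio of 9.92 between wild type and tumours (95% exact counting interval 2.51 to 85.8). Mmp27 had 20, 15 and 1 counts, a ratio of 13.7 (2.19 to 567). Mmp7, matrilysin, had 18 counts, all in wild-type libraries 1 and 2 (0.199 and 0.825 CPM), and 0 in the 6 mutant libraries. Oviduct markers summed to 9.05, 87.1 and 2.01 CPM in wild-type libraries 1 to 3. In hyperplasia they reached at most 2.03 CPM and in tumours 0.756 CPM. Whether oviduct tissue in the samples has a part in the Mmp7 counts was not tested. Mmp1b and Mmp20, and outside the cluster Mmp21, had 0 counts in all 9 libraries, and Mmp10 had 0.0575 CPM in 1 library. Intervals and floors cover counting error only. Neutrophil markers were near 0 too, summing to 1.72 to 3.53 CPM in wild type and 0.336 to 9.07 CPM in tumours. Elane was at 0 in all 9 libraries, and Ly6g at 0 in wild type and in tumours alike. The 2 tested neutrophil markers, S100a8 and S100a9, were fitted higher in tumours (0.29 and 0.71, edgeR, BH adjusted p = 0.912 and 0.73). Their highest values were in tumour 2 (3.90 and 5.07 CPM). Adamts18 completes the 10 members below the filter, with at most 0.46 CPM in any library.

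Most promoters of this cluster hold a sequence feature that was not found in the other members with a promoter entry, so they are shown. RefSeq promoter entries (GRCm38.p6) were matched by symbol for 33 of the 48 members, and the 250 bases before the annotated start were searched on both strands for the AP-1 letters TGANTCA, which are the same on both strands. They were found in 6 of the 8 cluster genes (not in Mmp8 and Mmp27) and in 0 of the 25 other member genes with an entry, against 6.75% of 32851 promoters of that length. Members with no entry, Adamts5 among them, were not searched. Below, the last 120 bases before the start are printed on the gene's strand with the AP-1 letters in capitals, for the 6 cluster genes (for Mmp7, 1 of 2 annotated starts) and for Timp1, which has no match.
Mmp3 (chr9:7445702-7445821, plus strand): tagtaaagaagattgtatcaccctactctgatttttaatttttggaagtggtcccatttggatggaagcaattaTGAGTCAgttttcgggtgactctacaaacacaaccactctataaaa
Mmp13 (chr9:7272394-7272513, plus strand): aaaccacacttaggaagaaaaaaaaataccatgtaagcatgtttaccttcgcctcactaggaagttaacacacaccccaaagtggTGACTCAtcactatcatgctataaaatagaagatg
Mmp10 (chr9:7502222-7502341, plus strand): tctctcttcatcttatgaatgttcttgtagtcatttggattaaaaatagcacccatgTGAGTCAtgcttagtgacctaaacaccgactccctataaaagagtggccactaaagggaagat
Mmp1b (chr9:7388027-7388146, minus strand): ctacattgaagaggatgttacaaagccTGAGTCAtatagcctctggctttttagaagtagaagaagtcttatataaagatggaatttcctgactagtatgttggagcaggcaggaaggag
Mmp20 (chr9:7628111-7628230, plus strand): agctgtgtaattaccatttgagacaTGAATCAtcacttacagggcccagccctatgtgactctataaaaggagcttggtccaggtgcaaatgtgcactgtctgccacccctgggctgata
Mmp7 (chr9:7691970-7692089, plus strand): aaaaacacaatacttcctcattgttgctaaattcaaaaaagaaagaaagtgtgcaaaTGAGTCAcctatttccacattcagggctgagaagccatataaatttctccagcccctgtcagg
Timp1 (chrX:20870046-20870165, plus strand): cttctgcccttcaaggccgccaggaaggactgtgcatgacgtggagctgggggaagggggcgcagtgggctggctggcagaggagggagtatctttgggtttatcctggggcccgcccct

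In these 6 genes the match begins 35 to 95 bases before the start, and the letters TATAAA follow it in each. They begin 7 bases before the start in Mmp3, 16 in Mmp13, 26 in Mmp7, 29 in Mmp10, 49 in Mmp1b and 58 in Mmp20. Whether they act as a TATA box was not tested. On the gene's strand TATAAA was found in 8 of the 33 members with an entry, the same 6 cluster genes with Adamtsl2 and Mmp21, against 7.59% of all promoters. Mmp13 and Mmp10 also hold the forkhead letters TGTTTAC (both strands searched), found in 3.17% of all promoters and in none of the other 31 members with an entry. Such matches describe the letters in this window and do not show binding. Mmp1b and Mmp20, with the same letters, were at 0 counts, and Mmp3, with the highest level of the cluster, ranged from 0 to 4.36 CPM.

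Between hyperplasia and wild type none of the 38 tested members passed, as none of the 16213 genes did (0% by edgeR QL, with 572 genes at an unadjusted p under 0.05, while the DESeq2 Wald test called 18 genes and limma on log2(TPM + 1) called 1, none of them members). At an unadjusted p under 0.05 there were 3 members (7.9%, against 3.53% of all genes, 1.41% higher and 2.12% lower), Adamts5 lower and Mmp17 and Mmp25 higher. In CPM the groups did not overlap for 6 members (15.8%, against 9.81% of all genes, 4.63% higher and 5.18% lower), which adds Timp2, Adamts10 and Adamts20, all higher. In TPM these 3 genes overlapped between hyperplasia and wild type. Smooth muscle markers summed to 2440 to 5750 CPM in hyperplasia, above the 1074 to 2304 CPM of wild type, with 0 of 6 fitted lower, and oocyte markers to 2.97 to 58.3 CPM, below wild type. Adipocyte markers summed to 21.7 to 52.25 CPM, also below wild type, with 5 of 5 fitted lower. Theca cell markers were fitted lower for 4 of 4, with overlapping sums. The part of these cell types in these differences was not tested. The median log2 fold change was 0.20 over the members and −0.00 over all genes, and 16 of 38 members were fitted lower, against 50.3% of all genes.

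Between tumours and hyperplasia 0 of the 38 tested members passed by edgeR QL, against 0.185% of all genes (30 genes, all lower), and 14 had an unadjusted p under 0.05 (3 higher, 11 lower), or 36.8% against 14.1% of all genes (4.71% higher, 9.39% lower). The DESeq2 Wald test called 6 members, all lower (Timp1, Mmp17, Mmp3, Adamtsl1, Mmp19 and Adamts15), and 816 of the 16213 genes tested. Marker sums moved here too, with all members of these lists fitted lower in tumours: 2358 to 3676 CPM in hyperplasia against 328 to 488 CPM for luteal cells, 157 to 213 CPM against 71.6 to 93.8 CPM for macrophages, and 2440 to 5750 CPM against 328 to 952 CPM for smooth muscle. Adipocyte markers, 5 of 5 lower, summed to 21.7 to 52.25 CPM against 13.1 to 18.3 CPM. Oocyte markers were lower for 6 of 6, with overlapping sums. Granulosa cell markers went the other way, with 1 of 6 fitted lower and higher sums in all tumours. The part of these cell types in the differences between tumours and hyperplasia was not tested. In CPM the groups did not overlap for 12 members (31.6%, against 21.9% of all genes, 9.54% higher and 12.4% lower), of which Adamts10 was higher and 11 were lower. The median was −0.29 over the members and 0.05 over all genes, and 24 of 38 members were fitted lower, against 46% of all genes. Adamtsl2 (1.65, SE 0.53, edgeR, BH adjusted p = 0.234) and Adamts2 (1.03, SE 0.37, edgeR, BH adjusted p = 0.268) were the members with the largest fitted increases among those with an unadjusted p under 0.05.

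**Figure D4:**
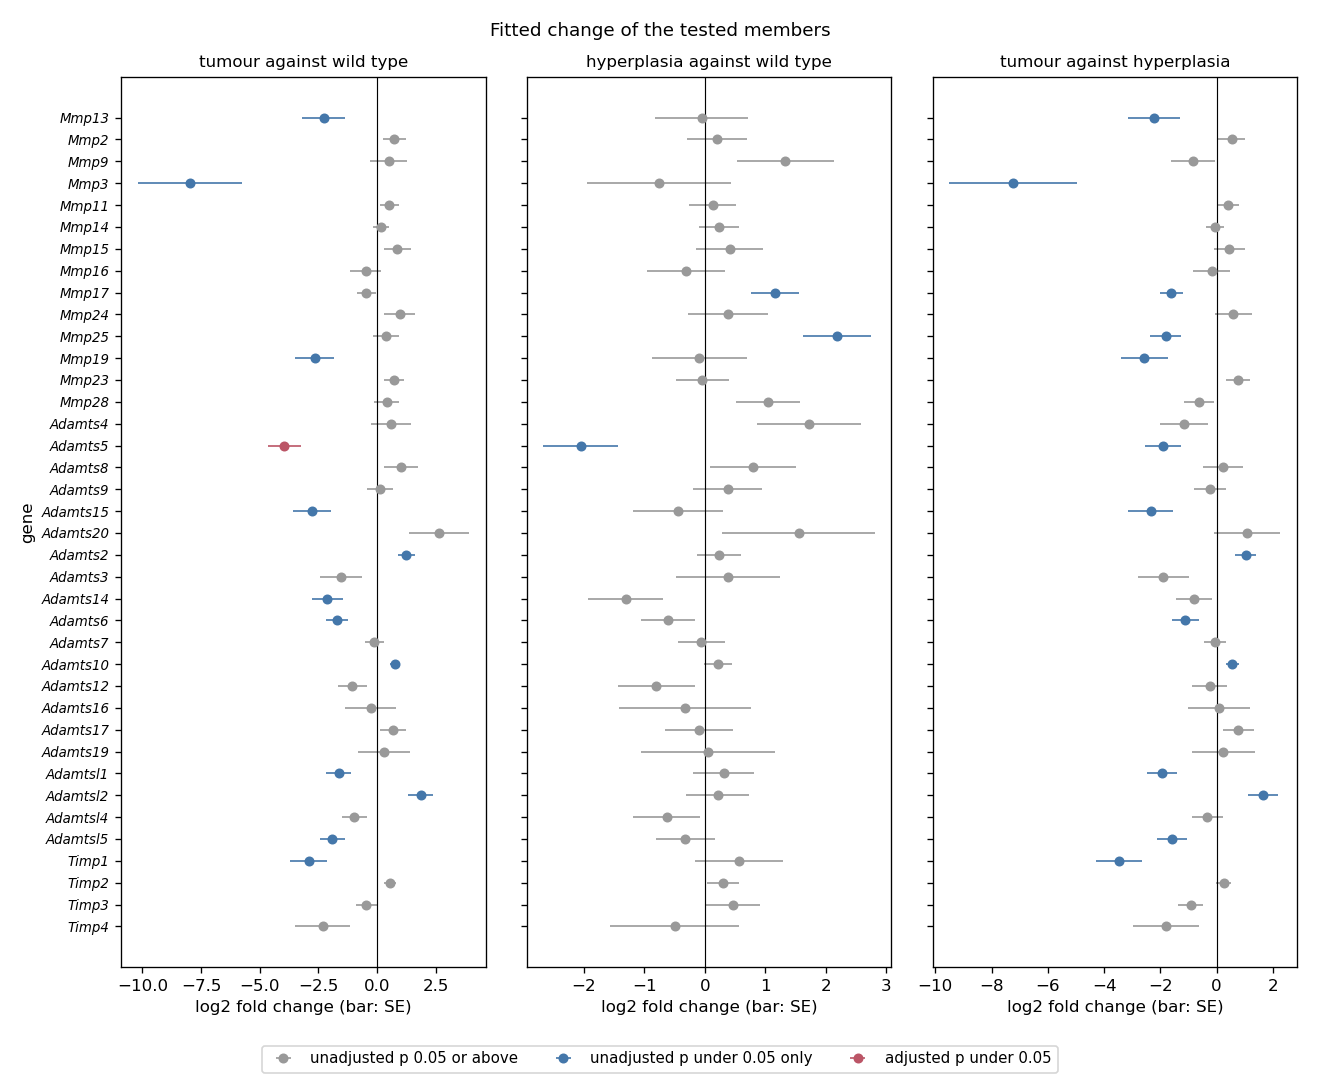
Fitted log2 fold change with its SE for the 38 tested members in the 3 comparisons, each panel with its own scale, coloured by the edgeR QL test. Adamts5 in tumours against wild type (−3.95) is the only member past the adjusted threshold, and Mmp17 and Mmp25 lie to the right in hyperplasia against wild type and to the left in tumours against hyperplasia.

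Other genes of matrix proteolysis were read from 4 lists of 49 genes, of which 43 were tested. In tumours against wild type 2 of these 43 passed, Thbs1 higher and Thbs2 lower, against 1.6% of all genes, and 23 had an unadjusted p under 0.05 (7 higher, 16 lower), against 20.1% of all genes (8.41% higher, 11.7% lower). The median was −0.42, against 0.01 over all genes, and 25 of the 43 were fitted lower, against 49.1% of all genes. Thbs1, encoding thrombospondin-1, a matrix protein that activates latent TGF-β, stood at 332, 492 and 598 CPM in wild type, 1059, 955 and 1526 CPM in hyperplasia and 2894, 5362 and 2966 CPM in tumours. The 3 groups did not overlap, and in tumours against wild type it rose by 2.98 (SE 0.40, edgeR, BH adjusted p = 0.0287; range over alternatives 4.68e-13 to 0.104). The Thbs1 call was lost without wild-type library 1, 2 or 3 (edgeR, BH adjusted p = 0.064, 0.0837 and 0.0645), without tumour library 1 or 3 (0.104 and 0.0947), without both wild-type library 1 and tumour library 2 (0.0554) and with the title stem term (0.0523). Thbs2, its close relative, stood at 21.6, 47.6 and 43.2 CPM in wild type, 34.2, 48.8 and 13.8 CPM in hyperplasia and 4.90, 7.12 and 6.64 CPM in tumours, and its log2 level fell by 2.59 in tumours against wild type (SE 0.49, edgeR, BH adjusted p = 0.0449; range over alternatives 2.17e-05 to 0.129). With 1 library left out the Thbs2 call remained only without hyperplasia library 3 (edgeR, BH adjusted p = 0.017), and was lost without wild-type library 1, 2 or 3 (0.071, 0.113 and 0.0972), hyperplasia library 1 or 2 (0.0547 and 0.0582) or tumour library 1, 2 or 3 (0.129, 0.0652 and 0.106). It was also lost without both wild-type library 1 and tumour library 2 (0.0728), with the title stem term (0.097) and with limma on log2(TPM + 1) (0.085). Among the 15 tested genes of the list of proteoglycans and other substrates, 9 were fitted lower in tumours, against 49.1% of all genes. Bcan, the brain hyalectan brevican, stood at 4.95 to 14.8 CPM in wild type and 71.8 to 103 CPM in tumours (2.92, edgeR, BH adjusted p = 0.0726). Vcan and Acan, the versican and aggrecan genes, were chosen after their values were seen because their products are cleaved by Adamts5. Vcan stood at 38.1, 530 and 159 CPM in wild type, 99.6, 269 and 28.1 CPM in hyperplasia and 16.4, 28.2 and 35.3 CPM in tumours, and Acan at 2.19 to 17.1 CPM, 1.10 to 11.4 CPM and 0 to 0.993 CPM. Tumours lay below every wild-type library for both, without passing (−3.19 and −4.57, edgeR, BH adjusted p = 0.127 and 0.0947).

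In the plasminogen system, whose protease plasmin activates several Mmp precursors, 0 of 6 tested genes passed, against 1.6% of all genes. Serpine2, a serine protease inhibitor also called protease nexin-1, stood at 398 to 533 CPM in wild type and 775 to 2086 CPM in tumours (1.42, edgeR, BH adjusted p = 0.0891). Plaur, the urokinase receptor, stood at 4.20 to 6.02 CPM against 0.927 to 3.22 CPM, and Plgrkt, a plasminogen receptor, at 20.1 to 40.9 CPM against 12.1 to 17.5 CPM. Among activators, anchors and clearance factors 0 of 7 passed. A2m, a broad protease trap, stood at 1.21 to 17.1 CPM in wild type and 0.39 to 0.861 CPM in tumours (−3.67, edgeR, BH adjusted p = 0.0904), and the proprotein convertase genes Pcsk5 and Pcsk6 overlapped between these groups. Of 15 tested genes of other matrix proteases 0 passed (1.6% of all genes did) and 11 were fitted lower in tumours (49.1% of all genes were). Adam8, a protease of myeloid cells, stood at 6.76 to 22.2 CPM in wild type and 1.46 to 4.62 CPM in tumours (−2.37, edgeR, BH adjusted p = 0.061), and Tll1, a relative of Bmp1, at 1.24 to 3.12 CPM against 0.084 to 0.331 CPM (0.069). Ctss, a cysteine protease of phagocytes, stood at 107 to 230 CPM against 15.2 to 57.1 CPM (0.0693).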

How the data were processed

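Each of the 9 libraries had a deposited RSEM gene table. Per the labels' protocols, the RNA came from Trizol and the library kit was a stranded TruSeq mRNA kit. In the submitters' processing notes RSEM 1.3.1, STAR 2.7.1a, Picard 2.8.1 and FastQC appear without roles, beside the build GRCm38, and no strand setting for counting is named. The authors deposited expected counts with no normalisation. RSEM divides reads among similar genes, and 25.6% of the values above 0 are fractional. The deposited TPM values were scaled by the authors for length and depth, and the deposited FPKM values entered no test.

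All 55536 identifiers were found in GENCODE M21, a release inferred by matching. Rounded expected counts were fitted with edgeR 4.0.16 (R 4.3.3): TMM factors of 0.797 to 1.08, filterByExpr (minimum count 10, total 15; 16213 genes kept, 38 of 48 members), and the quasi-likelihood test in 1 fit of 9 libraries, adjusted by Benjamini and Hochberg over all tested genes. Alternatives used DESeq2 1.42.0 and limma 3.58.1. The code of the fit was run on simulated counts with known changes. Those counts had less spread between libraries than the real data, so that run does not show how often calls here are wrong. Every pair of libraries differed by more than sampling noise (lowest chi-square per degree of freedom 25.0).

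The members and lists were chosen with earlier results of these data known. Named members are those called, the 8 with the smallest p in each comparison, all Timp genes, the 6 with the highest mean TPM, and those at 0 in 1 group with at least 1 CPM in another, 23 in all. The other members are described by ranges, except Mmp13, Mmp15, Mmp23, Adamts3, Adamts12, Adamts16, Adamts19 and Adamts20, whose single values or patterns were chosen after they were seen. Of the other lists, called genes and up to 3 with the smallest p in tumours against wild type are named.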

Additional observations from a re-analysis of the deposited data

How the results depend on the processing

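No paired analysis was possible because the labels give no replicate numbers that the groups share, and the title stem links only 1 hyperplasia and 1 tumour library. The calls rest on few libraries. For tumours against wild type the 259 genes called (57 higher, 202 lower; 1 member) became 721 (164 and 557; 3 members) without the low-count filter, 0 (0 members; 2610 genes at an unadjusted edgeR p under 0.05) with a term for the shared title stem, 1747 (604 and 1143; 12 members) with the DESeq2 Wald test and 428 (52 and 376; 2 members) with limma on log2(TPM + 1). They became 8 (0 members) without both wild-type library 1 and tumour library 2, an alternative chosen after seeing the data, and 0 to 404 (0 to 1 members) with 1 library left out. They were 0 without wild-type library 3 or tumour library 3 (2841 and 3146 genes at an unadjusted p under 0.05), 2 to 69 without wild-type library 1 or 2, hyperplasia library 2 or tumour library 1 or 2, and 404 without hyperplasia library 3. For hyperplasia against wild type the count of 0 genes became 2 without the filter, 3 with only those groups in the fit, 2 without those 2 libraries, 18 with DESeq2, 1 with limma, and 0 to 3 with 1 library left out, with 0 members in each. For tumours against hyperplasia the 30 genes (0 members) became 199 (1 member) without the filter, 12 with the title term, 1 with only those groups, 0 without those 2 libraries (3081 at an unadjusted p under 0.05), 816 (6 members) with DESeq2, 76 (1 member) with limma, and 0 (without tumour library 3, 2515 at an unadjusted p under 0.05) to 128 (without hyperplasia library 3) with 1 library left out, with 0 members in each and 2 to 13 genes without any other library. Of 622 values of named members under the alternatives 9 changed sign, all between tumours and wild type: Mmp14 (−0.13 to 0.42 with 1 library left out, −0.35 without those 2 libraries, −0.01 with limma), Mmp9 (−0.60 to 0.99 with 1 library left out, −0.51 with the title term, −0.09 with limma), Adamts4 (−0.02) and Mmp28 (−0.15) without those 2 libraries. With 1 library left out the difference between tumours and wild type also ranged from −0.88 to −0.09 for Timp3, 0.36 to 1.12 for Mmp2 and 0.25 to 0.72 for Mmp11. The limma scale moved the median of all genes to −0.12, 0.13 and −0.23 in tumours against wild type, hyperplasia against wild type and tumours against hyperplasia. With more genes or fewer samples in a fit the adjustment itself changes, and the cause of the other shifts was not tested. Depth limits members under about 1 CPM, where a library gives at most about 20 counts.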
